A study of Mus musculus with 4 samples.

Results

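Neutrophils were picked out of 4 single-cell RNA libraries of mouse hindlimb by their transcripts of S100a8 and S100a9, which encode the calcium-binding proteins that fill the neutrophil cytoplasm. A barcode counted as a neutrophil where these genes made up at least 1% of its unique molecular identifiers (UMIs, counts of single captured transcripts), where Elane, Mpo and Prtn3 together had under 10 UMIs, and where Cd79a and Cd3e had none. Only barcodes with 200 genes or more, 500 UMIs or more and no more than 20% of UMIs from mitochondrial genes were considered. The rule found 322 neutrophils among 6544 kept barcodes. Of these, 171 had at least 10 UMIs over Ltf, Ngp and Camp, which encode proteins of the specific granules, and are called immature. The other 151 cells had fewer and are called mature. The cells were thus chosen by, and split on, measured transcript levels, so the levels of these genes and every contrast between the stages are a description.

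One hindlimb of male C57Bl/6J mice was irradiated at 5 weeks of age with 3 fractions of 8.2 Gy X-rays while lead shielded the rest of the body. The groups were irradiated limbs (IR) and the opposite, shielded limbs (CON) of irradiated mice, taken 24 hours after the last fraction or 56 days after irradiation. Cells of 3 limbs were pooled after enzymatic digestion and red cell lysis, and at least 10000 live, nucleated cells were sorted. Every mouse behind both limbs had thus received X-rays, and the sort as described had no gate on a leukocyte marker. Each group was 1 library, so a library, its pool of limbs and its treatment cannot be told apart, no difference was tested and no p-value is given. Intervals in parentheses are 95% intervals that cover counting error only.

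Neutrophils arise in bone marrow from granulocyte-monocyte progenitors and fill their granules in waves, first the azurophil granules, then the specific granules with lactoferrin (Ltf), cathelicidin (Camp) and neutrophilic granule protein (Ngp), then the gelatinase granules. Division ends as the specific granules are made. Mature cells are held in marrow through CXCR4 and leave it through CXCR2, and in injured tissue they release interleukin 1 beta and chemokines. Transcription factors of the C/EBP family and PU.1 direct the granule genes and the later programme.

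The windows of 250 bases before the RefSeq start (GRCm38.p6) are shown for 4 genes that carry the results: Ltf, which the split used, Chil3, which ranked first between the stages, and Retnlg and Il1b, which stood on the same side at both times when the limbs' mature cells were compared. Capitals mark matches to the C/EBP motif TTGCNNAA or the PU.1 motif GGAAGT on either strand, with the sequence written along the gene's own strand. The windows lie at chr9:111019042-111019291 (plus strand) for Ltf, chr3:106167565-106167814 (minus strand) for Chil3, chr16:48872358-48872607 (plus strand) for Retnlg and chr2:129371140-129371389 (minus strand) for Il1b.
Ltf: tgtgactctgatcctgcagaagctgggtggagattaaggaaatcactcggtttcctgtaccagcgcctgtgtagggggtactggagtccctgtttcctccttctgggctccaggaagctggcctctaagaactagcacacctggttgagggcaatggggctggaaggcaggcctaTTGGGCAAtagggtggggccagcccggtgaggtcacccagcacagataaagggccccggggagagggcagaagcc
Chil3: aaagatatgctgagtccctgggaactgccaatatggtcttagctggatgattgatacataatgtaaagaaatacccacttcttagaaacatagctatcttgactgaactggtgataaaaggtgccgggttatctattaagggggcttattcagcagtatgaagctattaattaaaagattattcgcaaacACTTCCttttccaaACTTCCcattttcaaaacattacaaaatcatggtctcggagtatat
Retnlg: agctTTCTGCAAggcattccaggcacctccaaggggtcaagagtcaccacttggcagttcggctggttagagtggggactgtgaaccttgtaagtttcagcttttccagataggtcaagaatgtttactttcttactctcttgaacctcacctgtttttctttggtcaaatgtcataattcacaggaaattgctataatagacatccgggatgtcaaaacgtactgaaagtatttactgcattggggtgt
Il1b: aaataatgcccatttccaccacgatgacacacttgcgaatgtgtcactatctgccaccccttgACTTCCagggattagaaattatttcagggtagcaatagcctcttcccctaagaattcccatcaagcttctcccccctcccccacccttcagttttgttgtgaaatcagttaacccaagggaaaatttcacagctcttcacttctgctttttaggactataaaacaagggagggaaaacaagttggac
The capitals are a C/EBP match that begins 75 bases before the start in Ltf and 246 bases before it in Retnlg, and PU.1 matches at 60 and 46 bases in Chil3 and at 187 bases in Il1b. The C/EBP motif occurred in 3142 of 32851 windows of this length (9.564%) and the PU.1 motif in 6485 (19.74%), and a match describes the letters, not a bound site.

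The libraries held 7086 barcodes and 30020136 UMIs, from 4715202 UMIs in the IR library at 56 days to 10121978 in the IR library at 24 hours. Summed over all pairs of libraries, 11 barcode sequences were shared, and none was a neutrophil in both libraries of its pair. The label was checked with 16 neutrophil genes that the rule did not use, among them Retnlg, Csf3r, Cxcr2, Mmp8, Mmp9 and Ly6g. At least 3 of the 16 were detected in 319 of the 322 neutrophils, in 20 of 188 monocytes and macrophages and in 2 of 3380 endothelial cells. S100a8 transcripts were also found in endothelial barcodes, in 0.125% of them in the IR library at 24 hours, 3.05% in the CON library at 24 hours, 2.48% in the IR library at 56 days and 16.5% in the CON library at 56 days. The threshold left out 3 barcodes with 0.5 to 1% S100a8 and S100a9, all in the IR library at 24 hours with 6 to 10 of the 16 genes, and let in 7 with 1 to 2%, which had 1 to 12. The conditions on Elane, Mpo and Prtn3 and on Cd79a and Cd3e removed 10 and 3 of the 335 barcodes above the S100 threshold.

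A small number of barcodes also carried another lineage. At least 20 UMIs of endothelial, erythroid, fibro-adipogenic, B cell, B cell precursor or T cell markers were found in 17 of the 322 neutrophils, all at 56 days: 4 of 17 immature and 2 of 9 mature cells of the IR library, and 7 of 133 immature and 4 of 101 mature cells of the CON library. The endothelial markers reached 188 UMIs in a cell of the IR library and 395 in a cell of the CON library, and haemoglobin and other erythroid markers reached 5973 UMIs in 1 mature CON cell. At 24 hours no neutrophil reached this limit, and the highest count of endothelial marker UMIs was 4. These 17 are called mixed barcodes, and the results at 56 days for genes that rest on them are given with and without them. Counts of gene list members at 56 days include them.

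Neutrophils were a smaller share of the irradiated limbs' cells at 56 days, and at 24 hours almost no immature cell was found in the irradiated limbs. At 24 hours, 34 of 2539 barcodes of the IR library (1.34%, 0.929 to 1.87) and 28 of 1336 of the CON library (2.10%, 1.40 to 3.01) were neutrophils, a ratio of 0.639 (0.376 to 1.09). At 56 days, 26 of 969 barcodes of the IR library (2.68%, 1.76 to 3.91) and 234 of 1700 of the CON library (13.8%, 12.2 to 15.5) were neutrophils, a ratio of 0.195 (0.125 to 0.293). The interval of the 24-hour ratio includes 1 and that of the 56-day ratio does not. The CON library at 56 days alone gave 234 of the 322 cells.

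The share at 24 hours depended on what it was a share of. Endothelial cells made up 63.3% of the IR library and 36.8% of the CON library at 24 hours, and 49.9% and 46.9% of the IR and CON libraries at 56 days. Among kept barcodes that were not endothelial, the ratio of neutrophil shares at 24 hours was 1.10 (0.647 to 1.88).

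The stages differed between the libraries at 24 hours. Immature cells were 1 of 34 neutrophils in the IR library (2.94%, 0.0744 to 15.3) and 20 of 28 in the CON library (71.4%, 51.3 to 86.8), a ratio of 0.0412 (0.000993 to 0.257). At 56 days they were 17 of 26 in the IR library (65.4%, 44.3 to 82.8) and 133 of 234 in the CON library (56.8%, 50.2 to 63.3), a ratio of 1.15 (0.651 to 1.91). The mature cells as a share of all kept barcodes stood at 1.30% in the IR library and 0.599% in the CON library at 24 hours (ratio 2.17, 0.983 to 5.44), and at 0.929% and 5.94% in the IR and CON libraries at 56 days (ratio 0.156, 0.0695 to 0.309).

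Immature neutrophils as a share of all kept barcodes were lower in the IR library at both times, with ratios of 0.0263 (0.000635 to 0.164) at 24 hours and 0.224 (0.127 to 0.373) at 56 days. Other cells of marrow type were also fewer in the IR library at 24 hours, whereas at 56 days the ratio of B cell precursors was above 1. Granulocyte-monocyte progenitors, with at least 10 UMIs of Elane, Mpo and Prtn3, numbered 0 of 2539 in the IR library, which allows a share of up to 0.118%, and 9 of 1336 in the CON library at 24 hours, and 2 and 10 in the IR and CON libraries at 56 days. Nucleated erythroid barcodes were 0.315% and 4.42% of the IR and CON libraries at 24 hours (ratio 0.0713, 0.0294 to 0.150) and 3.30% and 4.76% at 56 days (ratio 0.693, 0.445 to 1.06). B cell precursors were 1.38% and 8.61% at 24 hours (ratio 0.160, 0.106 to 0.236) and 3.61% and 1.94% at 56 days (ratio 1.86, 1.12 to 3.09). How far the amount of marrow in each digest differed was not tested.

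**Figure D1:**
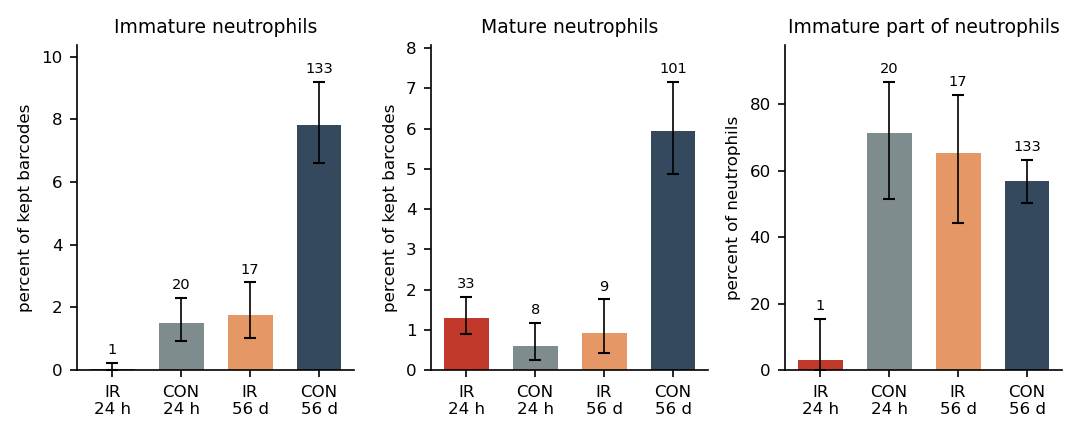
Immature and mature neutrophils as percentages of kept barcodes, and immature cells as a percentage of neutrophils, in each library. Bars carry exact binomial 95% intervals for counting error. The CON library at 56 days stands highest for immature (7.82%) and mature cells (5.94%) among kept barcodes. The IR library at 24 hours stands lowest for the immature share of neutrophils (2.94%, 1 cell of 34).

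The cut between the stages fell in a sparse stretch in 3 of the libraries. All 33 mature cells of the IR library and all 8 of the CON library at 24 hours had 0 UMIs over Ltf, Ngp and Camp, as did 8 of 9 in the IR library at 56 days. In the CON library at 56 days, 69 of the 101 mature cells had 0 and 32 had 1 to 9. Cells with 5 to 14 UMIs, on either side of the cut, numbered 19, of which 18 were in that library. Immature barcodes had more UMIs, and the cut is a number of UMIs, which a deeper barcode reaches more easily. Their median was 8172 UMIs in the single IR cell and 6701 in the CON library at 24 hours. At 56 days it was 12630 and 7263 in the IR and CON libraries. Mature cells had medians of 1910 and 2335 UMIs in the IR and CON libraries at 24 hours, and of 2384 and 2921 at 56 days.

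**Figure D2:**
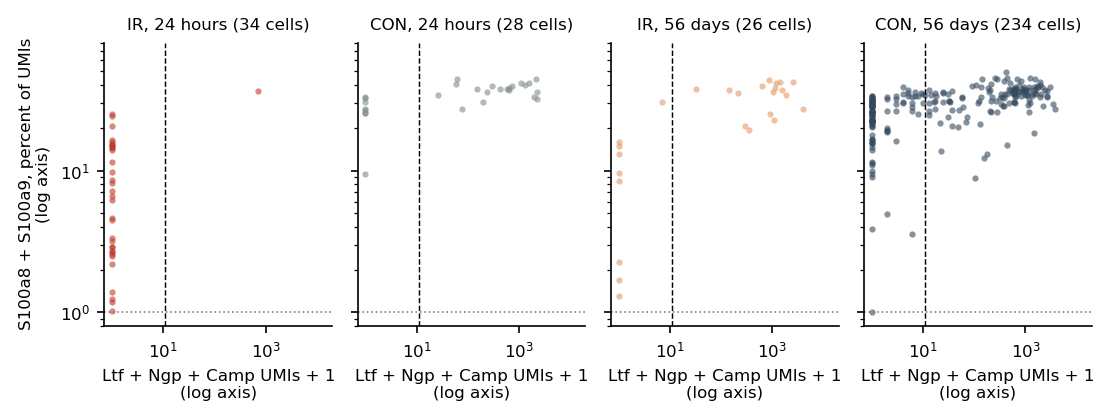
Each neutrophil of each library by its UMIs of Ltf, Ngp and Camp plus 1 (x axis, log scale) and the percentage of its UMIs from S100a8 and S100a9 (y axis, log scale). The dashed line is the cut of 10 UMIs between mature cells, on its left, and immature cells, and the dotted line is the 1% limit of the rule. Irradiated mature cells at 24 hours reach down to that limit, with a median of 6.58% against 26.8% in the CON library.

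Immature cells expressed specific granule and division genes, and mature cells expressed receptors, cytokines and immediate early genes. The CON library at 56 days, with 133 immature and 101 mature cells, was the only one with at least 25 cells of both stages. Levels are CPM, a gene's UMIs per 1000000 summed UMIs of the class. A gene counted as measured with at least 20 UMIs over both classes, and higher or lower means at least 2-fold. Among 5365 measured genes, 781 (14.6%) were higher in immature cells and 972 (18.1%) lower. With the ratios scaled by their median, which was -0.15 on the log2 scale, 905 (16.9%) were higher and 794 (14.8%) lower. These shares describe the split that the rule made and carry no test.

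Chil3, a chitinase-like protein of the specific granules in mice, separated the stages most, with 3828 UMIs in immature cells and 1 in mature cells, or 3206 and 2.77 CPM. Fcnb, the secreted lectin ficolin B, had 286 UMIs in immature and 0 in mature cells. The proliferation genes Mki67 and Top2a had 274 and 219 UMIs in immature and 0 in mature cells. Other leading genes were the histone genes Hist1h1b, Hist1h2ae and Hist1h3c, the acute phase protein Orm1 and the mitotic ubiquitin-conjugating enzyme Ube2c. They had 132 to 361 UMIs in immature cells and none in mature cells. The histone genes have near-identical copies, so their counts may be split among copies.

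The genes furthest lower in immature cells by the same ranking were mostly matrix genes whose UMIs lay in few mature barcodes. Cxcl14, C4b, Lum, Col14a1, Serpinf1, Col5a2, Tppp3, Gas1, Lrp1 and Col6a1 had 21 to 42 UMIs in mature cells, and 69.0 to 100% of each gene's UMIs lay in 1 cell. The mature cells of this library included 1 mixed barcode with 417 UMIs of fibro-adipogenic markers. Without the mixed barcodes none of these 10 genes was measured. A ranking over the 3 libraries with at least 8 cells of both stages, added after the cell numbers were known, named neutrophil genes instead. It measured 905 genes in all 3 libraries and found 54 (5.97%) higher and 98 (10.8%) lower in immature cells of each. The leading lower genes there were Il1b, Ifitm1, Ptgs2, Ccl6, Dusp1, Pim1, Clec4d, Cxcl2, Srgn and Junb, and the leading higher ones Chil3, Serpinb1a, Lta4h, Fcnb, Orm1, Zmpste24, Syne1, Mki67, Itgb2l and Top2a.

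Il1b, which encodes interleukin 1 beta, had 183 CPM in immature and 6992 in mature cells of the CON library at 24 hours, 114 and 12463 in the IR library at 56 days, and 259.6 and 5249 in the CON library at 56 days. Its transcripts were found in 27 of 133 immature and 90 of 101 mature cells of the last of these, against 0.125% of endothelial cells there. Serpinb1a, an inhibitor of neutrophil serine proteases, had 715 CPM in immature and 0 in mature cells of the CON library at 24 hours, 655 and 0 in the IR library at 56 days, and 503 and 19.4 in the CON library at 56 days. Tnf, another inflammatory cytokine, had 67 and 18 UMIs in immature and mature cells of the CON library at 56 days, a ratio of 1.12 (0.660 to 2.01). Tnf was thus not 2-fold apart between the stages where Il1b was.

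By list, 13 of 16 specific granule genes were higher in immature cells of the CON library at 56 days and none lower (median log2 ratio 2.64, against -0.15 over all genes). Lcn2, the iron-siderophore binding lipocalin, was 5.85-fold (5.43 to 6.31) higher, Cd177, a neutrophil surface glycoprotein, 5.06-fold (3.86 to 6.75), and Cybb, the membrane subunit of the NADPH oxidase, 5.68-fold (4.77 to 6.81). The exceptions were Hp, Cyba and Lyz2, with ratios of 0.904 (0.814 to 1.00), 1.35 (1.22 to 1.49) and 1.40 (1.35 to 1.46). Ltf, Ngp and Camp belong to this list and to the rule. Of the 20 cell cycle genes, 18 were higher and none lower (median 4.55).

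All 22 measured late maturation genes were lower in immature cells (median -2.13), 20 of them with the median of all genes taken off. This list shares members such as Il1b and Cxcr2 with other lists. Retnlg, a resistin-like secreted protein, had a ratio of 0.424 (0.414 to 0.435), and Csf3r, the receptor for granulocyte colony-stimulating factor, 0.177 (0.149 to 0.209). Of the immediate early genes 10 of 15 were lower and none higher (median -1.99), and of the inflammatory cytokine and NF-kappaB feedback genes 11 of 16 were lower and none higher (median -1.96). Of the adhesion and chemotaxis receptors 9 of 18 were lower and 1 higher. The higher one was Ltb4r1, the leukotriene B4 receptor, with 309 and 10 UMIs in immature and mature cells. Among 14 measured granulocyte transcription factors, 6 were lower, led by Junb and Cebpb, and 1 was higher: Cebpe, the factor of specific granule formation, at 311 CPM in immature and 27.7 CPM in mature cells. The gelatinase and secretory vesicle genes were split, with 1 of 11 higher and 1 lower (median -0.06).

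Ordering the CON cells at 56 days by their Ltf, Ngp and Camp UMIs placed these genes in sequence, as a description, since the axis is built from measured transcripts. There were 63 cells with at least 500 such UMIs, 38 with 100 to 499, 32 with 10 to 99, 32 with 1 to 9 and 69 with 0, and their median totals ran 10456, 6376, 4144.5, 4033 and 2787 UMIs. Chil3 stood at 4483, 991, 66.4, 0 and 4.38 CPM in that order and Cebpe at 413, 109, 103, 45.5 and 17.5. Both were highest in the first band. Fcnb had 359 and 3.77 CPM in the first 2 bands and no UMI in the others, where Chil3 still stood at 66.4 CPM in the third.

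Mmp8 (neutrophil collagenase) stood at 1054, 2972, 3424, 1977 and 805 CPM in the same order and Mmp9 (gelatinase B) at 988, 2566, 2782, 2136 and 2009. Retnlg stood at 2689, 27649, 42569, 39957 and 24376 CPM. These 3 were highest in the middle band, with 10 to 99 UMIs. Il1b stood at 285, 15.1, 590.4, 3614 and 6194 CPM and was found in 8 of 63, 4 of 38, 15 of 32, 24 of 32 and 66 of 69 cells. Ccl6, a chemokine of mature neutrophils, stood at 125, 199.7, 708, 1780.4 and 3029 CPM, and Ptgs2, the inducible cyclooxygenase, at 63.0, 52.7, 118, 356 and 1204. Csf3r stood at 127, 199.7, 517, 735 and 1247 CPM and Cxcr2, the receptor for Cxcl chemokines, at 116, 414, 723, 629 and 867. Il1b, Ccl6, Ptgs2, Csf3r and Cxcr2 were all highest in the band with 0 UMIs.

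**Figure D3:**
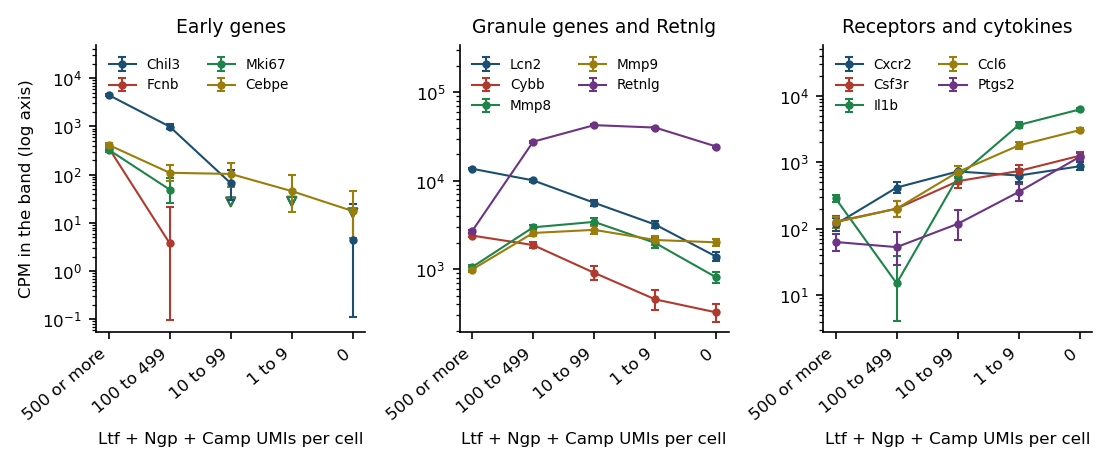
Levels in CPM (log axis) of 14 genes in 5 bands of CON neutrophils at 56 days, ordered by Ltf, Ngp and Camp UMIs per cell, with exact Poisson 95% intervals. Open triangles are the upper bounds of bands with 0 UMIs of a gene. Chil3, Fcnb and Cebpe are highest on the left, Mmp8 and Retnlg in the middle, and Il1b, Ccl6 and Csf3r on the right.

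Cells with a UMI of Mki67 or Top2a were found among the immature and not the mature neutrophils. They numbered 0 of 1 in the IR and 3 of 20 in the CON library at 24 hours, and 5 of 17 in the IR and 20 of 133 in the CON library at 56 days. No mature cell had one, of 33 and 8 in the IR and CON libraries at 24 hours and 9 and 101 at 56 days. With every cell thinned to 1000 UMIs, the counts at 56 days were 1 of 17 in the IR and 14 of 132 in the CON library, so the higher share in the IR library was not seen at equal depth. The 20 cycling cells of the CON library at 56 days had a median of 19875 UMIs, against 6819 in the other 113 immature cells. They had 6442 CPM of Chil3 against 1875 in the others, 689.9 against 54.4 of Fcnb, 155 against 2405 of Mmp8, and 1423 against 17422 of Retnlg. Ltf differed less, at 6603 against 8089 CPM.

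No pair of IR and CON libraries had 25 cells of the same stage, the number set for describing expression, so it was lowered to 8 after the cell numbers were known. This leaves mature cells at 24 hours (33 IR, 8 CON), mature cells at 56 days (9 IR, 101 CON) and immature cells at 56 days (17 IR, 133 CON). With so few cells, 1 cell can decide a level, and the number of cells with a UMI is given for the genes the comparisons turn on.

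Mature neutrophils of irradiated limbs at 24 hours had more Il1b, Fos and Fosb and less Retnlg, Lcn2, Mmp8 and Lyz2 than those of shielded limbs. Of 571 measured genes, 149 (26.1%) were higher and 29 (5.08%) lower in IR cells. The median log2 ratio over these genes was 0.40, and with ratios scaled by it 92 (16.1%) were higher and 66 (11.6%) lower. S100a8 and S100a9, which the rule used, took 47977 and 53757 CPM in IR cells and 140427 and 138445 CPM in CON cells, which lowers the CPM of all other genes in the CON cells. Log2 ratios are therefore given also with the median taken off. No mixed barcode was among these cells, and endothelial marker UMIs numbered 16 over 33 IR cells and 2 over 8 CON cells.

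Il1b stood at 18603 CPM in IR cells and 6992 CPM in CON cells, a difference of 2.66-fold (2.20 to 3.24), and was found in 31 of 33 and 8 of 8 cells. The log2 ratio was 1.41, 1.01 with the median taken off, and 1.09 with S100a8, S100a9, Ltf, Ngp and Camp left out of the totals. Per 10000 UMIs of a cell, the median was 177 Il1b UMIs in IR cells (lowest 0, highest 389) and 50.0 in CON cells (lowest 10.1, highest 236), so single cells of the libraries overlapped.

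The chemokine genes Ccl4 and Ccl3 had 61 and 25 UMIs in IR cells and none in CON cells, at least 5.73-fold and 2.35-fold higher against a floor of 3 UMIs in the CON class. Ccl4 came from 8 of 33 IR cells, 32.8% of it from 1 cell, and Ccl3 from 10. Ptgs2 stood at 2791 CPM in IR cells and 991 in CON cells, 2.82-fold (1.71 to 4.95), and Nlrp3, the sensor of an inflammasome that activates interleukin 1 beta, at 936 and 175 CPM. Nfkbia, the inhibitor that NF-kappaB induces, had 62 and 3 UMIs in IR and CON cells. Ptgs2 was found in 22 of 33 IR and 4 of 8 CON cells, Nlrp3 in 18 of 33 IR and 2 of 8 CON cells and Nfkbia in 15 of 33 IR and 2 of 8 CON cells. In all, 7 of 12 measured inflammatory cytokine and NF-kappaB feedback genes were higher in IR cells, also with the median taken off, and 1 was lower, with a list median of 1.43 against 0.40 over all genes. The lower one was Ccl6, at 1609 CPM in IR and 3379.6 CPM in CON cells. Among all measured genes 26.1% were higher and 5.08% lower, and 16.1% and 11.6% with the median taken off.

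Of 14 immediate early genes, 8 were higher in IR cells and none lower (median 1.15), and 4 were higher with the median taken off. The shares of all measured genes that were higher were 26.1% and, with the median taken off, 16.1%. Fosb, an AP-1 subunit, had 53 UMIs in IR cells and 1 in CON cells, found in 18 of 33 and 1 of 8 cells. Fos stood at 5172 CPM in IR cells and 1689.8 CPM in CON cells, 3.06-fold (2.09 to 4.65), and was found in 33 of 33 and 8 of 8 cells. Gadd45b, a stress-induced gene, had 91 and 4 UMIs in 16 of 33 IR and 3 of 8 CON cells, 6.41-fold (2.42 to 24.0). Ier2, another member, had a log2 ratio of -0.35.

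Of 11 measured receptors of adhesion and chemotaxis, 5 were higher in IR cells and none lower (median 0.69). The shares over all measured genes were 26.1% and 5.08% (median 0.40). Cxcr2 stood at 1396 CPM in IR and 408 CPM in CON cells, 3.42-fold (1.59 to 8.77), and Cxcr4 at 1100.1 and 291 CPM, 3.78-fold (1.54 to 12.0). Cxcr2 was found in 26 of 33 IR and 5 of 8 CON cells and Cxcr4 in 23 of 33 IR and 3 of 8 CON cells, and the CON values rest on 7 and 5 UMIs. The other 3 were Cd44, the integrin gene Itgal and Ptafr, the receptor for platelet-activating factor. The remaining genes named by the ranking were Hspa8, a constitutive chaperone, with 32 UMIs in 23 IR cells and none in CON cells (at least 3.01-fold), Thbs1 with 54 and 2 UMIs, and the interferon-induced Ifi27l2a with 46 UMIs in 7 IR cells and 1 in 1 CON cell.

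Retnlg was the clearest gene in the other direction, with 4975 CPM in IR cells and 31814 CPM in CON cells, a ratio of 0.156 (0.135 to 0.180), and a log2 ratio of -2.68, or -3.08 with the median taken off. It was found in 23 of 33 IR and 7 of 8 CON cells. Lcn2 stood at 345 and 1748 CPM, a ratio of 0.197 (0.107 to 0.356), and Mmp8 at 148 and 874 CPM, a ratio of 0.169 (0.0652 to 0.412). Lcn2 was found in 9 of 33 IR and 6 of 8 CON cells and Mmp8 in 7 of 33 IR and 5 of 8 CON cells. Both were lower in IR cells, as was Lgals3, which encodes galectin 3, at a ratio of 0.153 (0.0714 to 0.312). Lyz2, lysozyme, had a ratio of 0.348 (0.250 to 0.487). The cystatin family genes Stfa2 and Cstdc4 were also named, with 0 and 20 UMIs of Stfa2 and 34 and 78 of Cstdc4 in IR and CON cells. Stfa2 came from 1 CON cell and Cstdc4 from 2 IR and 3 CON cells, and both have close paralogs among which counts may be split. Over the lists, 2 of 4 measured specific granule genes and 1 of 6 gelatinase and secretory vesicle genes were lower in IR cells and none higher. Among the others Cyba had a log2 ratio of -0.22 and Mmp9 of -0.26. Of 21 late maturation genes 3 were higher and 3 lower. Among all measured genes, 26.1% were higher and 5.08% lower.

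The S100 share that the rule used also differed between the limbs. S100a8 and S100a9 made up under 5% of UMIs in 15 of 33 IR and 0 of 8 CON mature cells at 24 hours, and in 3 of 9 IR and 4 of 101 CON mature cells at 56 days. Among mature cells with at least 5%, 18 IR and 8 CON cells at 24 hours, the ratio of Il1b was 2.56 (2.10 to 3.13), of Fos 2.81 (1.89 to 4.31), of Retnlg 0.208 (0.178 to 0.242) and of Lcn2 0.302 (0.162 to 0.549). All 4 were still at least 2-fold apart.

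At 56 days, mature neutrophils of irradiated limbs again had more Il1b and less Retnlg, Lyz2 and Lcn2 than those of shielded limbs. Of 2391 measured genes, 528 (22.1%) were higher and 376 (15.7%) lower in IR cells, and 377 (15.8%) and 485 (20.3%) with the median log2 ratio of 0.20 taken off. Without the mixed barcodes 451 and 363 of 1898 were higher and lower. Only 9 IR cells with 32015 UMIs stood against 101 CON cells with 360450. A gene near the limit of 20 UMIs can thus have very few IR UMIs. The count of lower genes depended on the small count added before ratios were taken, as given below. The 8 genes furthest higher were Bst2, Gpihbp1, Gng11, Aqp1, Igfbp7, Cd81, Lgals1 and Ramp2, most of them genes that capillary endothelium expresses. They came from 1 or 2 of the 9 IR cells, with 63.5 to 100% of their UMIs in 1 cell, and the 2 mixed IR barcodes held up to 121 endothelial marker UMIs. Without cells with any UMI of Cdh5, Pecam1 or Kdr, Igfbp7 and Cd81 had no UMI in IR cells and 30 and 10 in CON cells, and no direction can be read for Cd81.

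Il1b stood at 12463 CPM in IR cells and 5249 CPM in CON cells, 2.37-fold (2.13 to 2.65), and was found in 8 of 9 and 90 of 101 cells. Without the mixed barcodes, 7 IR and 97 CON cells, the ratio was 2.78 (2.44 to 3.16), and among cells with 0 UMIs of Ltf, Ngp and Camp, 8 IR and 69 CON cells, it was 2.24 (2.00 to 2.50). Per 10000 UMIs of a cell the median was 137 in IR cells (0 to 383) and 44.8 in CON cells (0 to 301), so the cells overlapped here too. Across the 4 libraries, Il1b in mature cells stood higher in both IR libraries than in both CON libraries.

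Other cytokine genes rested on fewer cells. Ccl4 stood at 1249 CPM in IR and 399.5 CPM in CON cells, 3.13-fold (2.15 to 4.47), but 97.5% of its IR UMIs lay in 1 of 2 positive cells. Cxcl2 transcripts were also found in only 2 of the 9 IR cells, against 55 of 101 CON cells. Cxcl2, a ligand of Cxcr2, stood at 3124 and 1371 CPM, 2.28-fold (1.82 to 2.83), and at a ratio of 1.09 (0.698 to 1.63) without the mixed barcodes. Of 16 measured inflammatory genes 9 were higher and 1 lower (median 1.06, against 0.20 over all genes). With the median taken off, 6 were higher and 2 lower. Among all measured genes 22.1% were higher and 15.7% lower, and 15.8% and 20.3% with the median taken off. The list count includes the mixed barcodes. Nr4a1, an immediate early nuclear receptor, stood at 1655 and 402 CPM, 4.12-fold (2.95 to 5.67), and was found in 8 of 9 IR and 54 of 101 CON cells. Without the mixed barcodes its ratio was 6.37 (4.45 to 8.97). Of 15 immediate early genes 5 were higher and 1, Jun, lower, against 22.1% and 15.7% of all measured genes, and Fos had a ratio of 0.934 (0.731 to 1.18).

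Cxcr4 stood at 906 CPM in IR cells and 355 CPM in CON cells, 2.55-fold (1.64 to 3.84), with 51.7% of the IR UMIs in 1 cell, and at a ratio of 4.15 (2.62 to 6.34) without the mixed barcodes. Cxcr2 stood at 437 and 779.6 CPM, a ratio of 0.561 (0.303 to 0.957). Cxcr4 was thus higher in IR than CON cells at both times, and Cxcr2 at 24 hours and not at 56 days. The difference between the times was not tested. Of 16 measured receptors, 5 were higher and 3 lower (median 0.03), near the 22.1% and 15.7% of all measured genes (median 0.20).

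Lyz2 stood at 968 CPM in IR cells and 8669.7 CPM in CON cells, a ratio of 0.112 (0.0758 to 0.159), and was found in 5 of 9 and 99 of 101 cells. Retnlg stood at 10027 and 30082 CPM, a ratio of 0.333 (0.297 to 0.372), and of 0.282 (0.239 to 0.330) without the mixed barcodes. Lcn2 had a ratio of 0.397 (0.258 to 0.587) and was found in 2 of 9 IR and 83 of 101 CON cells, with 65.4% of the IR UMIs in 1 cell. Mmp8 had a ratio of 0.278 (0.138 to 0.503) and was found in 3 of 9 IR and 80 of 101 CON cells, with 72.7% of the IR UMIs in 1 cell. Of the CON mature cells 32 had 1 to 9 UMIs of Ltf, Ngp and Camp, a band with more Retnlg and Mmp8 than the cells at 0. Among the cells at 0, Retnlg had a ratio of 0.268 (0.230 to 0.310), Lyz2 of 0.0732 (0.0426 to 0.118), Lcn2 of 0.427 (0.245 to 0.694) and Mmp8 of 0.129 (0.0264 to 0.384). All 4 were at least 2-fold lower in IR cells in that subset. Of 10 measured specific granule genes 7 were lower and none higher (median -1.52). Camp, one of the 7, and Ngp, which was not lower by 2-fold, also defined the stages, so this count draws in part on the rule. Of 10 gelatinase and secretory vesicle genes 4 were lower and none higher. Among all measured genes 15.7% were lower and 22.1% higher.

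The other genes furthest lower in IR cells were Cstdc4, with 0 UMIs in IR cells and 616 in 31 CON cells (at least 18.2-fold lower), Timp2, an inhibitor of metalloproteinases, with 0 and 124 (at least 3.67-fold), the cystatin genes Stfa1 and Stfa2l1, the receptor gene Cd300lb with 0 and 111, and Mgst1 with 2 and 196. Stfa2l1 stood at 281 and 1529 CPM. Of 12 measured type I interferon genes 5 were higher and 2 lower (median 0.62), against 22.1% and 15.7% of all measured genes. Bst2 was among the 5, and its 42 UMIs in IR cells fell to 0 without cells with any UMI of Cdh5, Pecam1 or Kdr. Isg15, a ubiquitin-like modifier, was the 1 member higher at both times, with 722 and 233 CPM in IR and CON cells at 24 hours and 625 and 128 CPM at 56 days.

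The comparisons of mature cells at 24 hours and at 56 days share no library, and 567 genes were measured in both. Of these, 148 were higher at 24 hours and 87 at 56 days, and 28 were higher at both. The 28 were 18.9% of the 24-hour set, where 15.3% of all 567 genes were higher at 56 days. They were 32.2% of the 56-day set, where 26.1% of all 567 were higher at 24 hours. Both shares stood near those over all genes. The 28 genes included Il1b, Ccl3, Ccl4, Cxcr4, Fosb, Atf3, Nr4a1, Socs3, Isg15, Gadd45b and Ptafr, whose 56-day log2 ratio was above 1 also without the mixed barcodes. Nfkbia and Hspa8 were among the 28 but stood at ratios of 1.47 (0.654 to 2.89) and 1.10 (0.348 to 2.67) at 56 days without them, where Lgals3 below stood at 0.469 (0.187 to 0.979). In the other direction 28 were lower at 24 hours and 67 at 56 days, and 11 were lower at both. They were 39.3% of the 24-hour set, where 11.8% of the 567 genes were lower at 56 days. They were 16.4% of the 56-day set, where 4.94% of the 567 were lower at 24 hours. The 11 were Retnlg, Lcn2, Mmp8, Lyz2, Lgals3, Timp2, Cstdc4, Il1f9, Tmcc1 and the rule genes S100a8 and S100a9. Of the 67 genes lower at 56 days, 17 were higher at 24 hours, near the 26.1% of all 567 that were. Of the 87 genes higher at 56 days, 1 was lower at 24 hours.

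**Figure D4:**
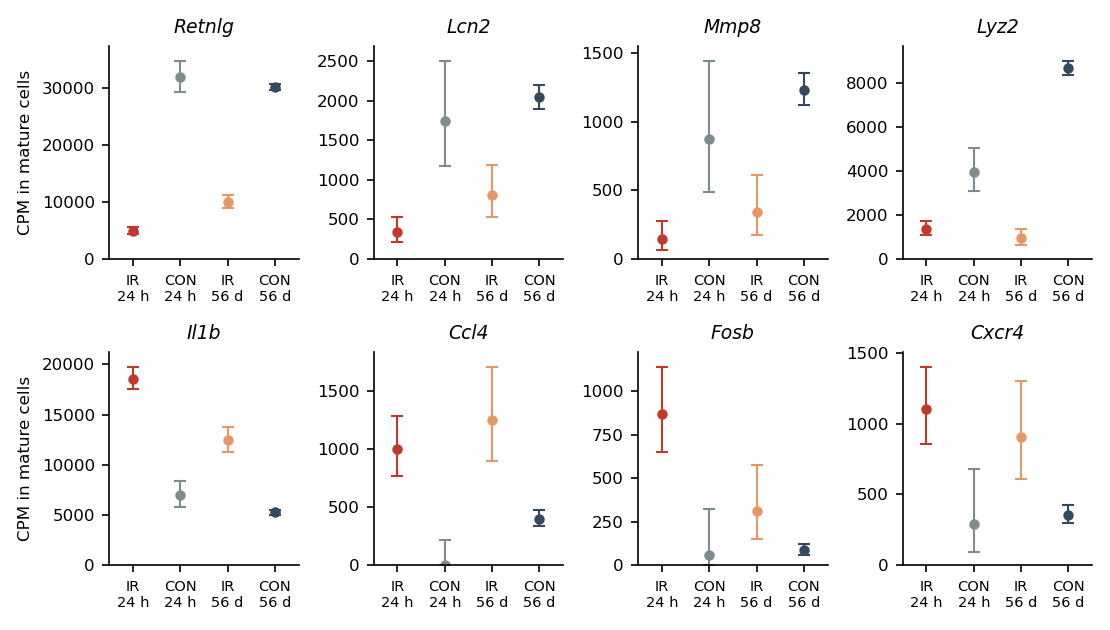
Levels of 8 genes in mature neutrophils of the 4 libraries in CPM (linear axes that start at 0 and differ between genes), with exact Poisson 95% intervals for counting error, IR left of CON at each time. Il1b is higher in IR than CON at both times (18603 and 6992 CPM at 24 hours), and Retnlg, Mmp8, Lcn2 and Lyz2 are lower in IR than CON at both.

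Immature neutrophils could be compared only at 56 days, and all but 1 of the measured specific granule genes were within 2-fold. Camp stood at 42419 CPM in 17 IR cells and 38539.6 CPM in 133 CON cells, Ltf at 6422 and 7656, Lcn2 at 11987 and 11964, and Chil3 at 3453 and 3206. Ltf, Ngp and Camp also defined the stages, so their levels and the list count draw in part on the rule. None of the 16 specific granule genes was higher in IR cells and 1 was lower (median -0.20). That gene was Olfm4, olfactomedin 4, which only a subset of mouse neutrophils is known to make. It had 0 UMIs in IR cells and 261 in 10 of 133 CON cells (at least 16.6-fold lower). This bound counts UMIs and not cells, and a gene found in so few CON cells may be missed among 17 IR cells. Of 5106 measured genes 486 (9.52%) were higher in IR cells and 472 (9.24%) lower, and 239 of 4511 and 792 of 4511 without the mixed barcodes. The count of lower genes depended here too on the count added before ratios were taken.

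After Olfm4, 4 of the other 7 genes furthest lower were histone genes. Hist1h1e, a linker histone, stood at 88.0 CPM in IR and 603 CPM in CON cells, a ratio of 0.146 (0.0886 to 0.227), and was found in 7 of 17 and 106 of 133 cells. Hist1h1b had 16 and 361 UMIs, Hist1h3c 1 and 132, and Hist1h2ab 0 and 77, the last 2 in 11 CON cells. Lyst, a regulator of lysosome-related organelles, stood at 198 and 641 CPM, a ratio of 0.309 (0.223 to 0.418), and was found in 15 of 17 and 127 of 133 cells. Slc25a37, a mitochondrial iron carrier, had 0 and 70 UMIs (at least 4.44-fold lower), found in 46 CON cells, and Ccl4 had 0 and 59 in 8 CON cells. Of the 20 cell cycle genes, a list without these histone genes, 7 were higher in IR cells and none lower (median 0.51). Among all measured genes 9.52% were higher and 9.24% lower, and the list was not counted without the mixed barcodes. Mki67 stood at 219.9 and 229 CPM and Cdk1 at 132 and 54.4 CPM in IR and CON cells. Without the mixed barcodes the log2 ratios of Olfm4, Slc25a37, Hist1h1e and Lyst were -6.29, -4.13, -2.72 and -2.04. The 17 IR cells had a median of 12630 UMIs, against 7263 in CON cells.

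The genes furthest higher in IR immature cells were again carried by few cells. Stfa2 came from 2 IR cells, 93.3% from 1. Cyp26b1, Cd34, Scarb1 and Pltp came from 3 or 4 of the 17 IR cells, Gngt2 from 5 and S100a4 from 2. Cdkn1a, the cell cycle inhibitor p21, was among them. Scarb1 had 24 and 8 UMIs in IR and CON cells, and too few to be measured once the mixed barcodes or the cells with endothelial UMIs were left out. Of 15 inflammatory genes 5 were lower in IR immature cells and 1 higher, and of 15 immediate early genes 4 were lower and none higher. Among all measured genes 9.24% were lower and 9.52% higher. Without the mixed barcodes more of all measured genes were lower and fewer higher, as given above, and these lists were not counted without them. The difference from the mature cells was not tested.

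The single immature cell of the irradiated limbs at 24 hours had 8172 UMIs. It held 108 UMIs of Ltf, 383 of Ngp, 214 of Camp, 92 of Lcn2 and 26 of Chil3, which is 11258 CPM of Lcn2 and 3182 of Chil3, against 13573 and 4247 CPM over the 20 immature CON cells. It had no UMI of Mki67, Top2a, Fcnb or Cdkn1a. One cell allows no comparison.

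Targets of p53, the factor that X-rays activate, were followed because endothelial cells of the same limbs carried them at high levels. In mature neutrophils Cdkn1a had 6 UMIs in IR and 1 in CON cells at 24 hours (98.5 and 58.3 CPM) and 14 and 12 at 56 days (437 and 33.3 CPM). All 14 UMIs of the IR cells at 56 days lay in the 2 mixed barcodes, and the other 7 cells had none. In immature cells at 56 days Cdkn1a had 42 and 11 UMIs in IR and CON cells, 20.1-fold (10.1 to 43.2). Without the mixed barcodes it had 5 and 6 (30.2 and 5.42 CPM), too few to be measured. Bax, an effector of apoptosis, had 38 and 33 UMIs in these IR and CON cells (167 and 27.6 CPM). Without the mixed barcodes Bax had 13 and 22 UMIs in 7 of 13 IR and 19 of 126 CON cells. Its level was then 78.5 CPM (41.8 to 134) in IR and 19.9 CPM (12.5 to 30.1) in CON cells, so Bax stayed higher in IR cells. Mdm2, the p53 ubiquitin ligase, went the other way, with 5 and 58 UMIs in all immature IR and CON cells at 56 days (22.0 and 48.6 CPM). Of 11 measured p53 list members in these cells, 3 were higher in IR and 4 lower (median log2 ratio -0.38, against -0.01 over all genes). Among all genes measured in these cells, 9.52% were higher and 9.24% lower.

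Mdm2 had 3 and 4 UMIs in IR and CON mature cells at 24 hours, and Ccng1, cyclin G1, 1 and 0. Phlda3, an Akt repressor, had none in either. A difference was not detectable at these counts. Cdkn1a in endothelial cells stood at 2317 CPM in IR and 309.9 in CON at 24 hours, 7.47-fold (6.89 to 8.12), and in monocytes and macrophages at 1259 and 219.9, 5.72-fold (4.07 to 8.29). The upper bound of the interval of Cdkn1a in IR mature neutrophils at 24 hours, 214 CPM, lies below the level in IR endothelial cells and IR monocytes.

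By the p53 list, 0 of 3 measured members were at least 2-fold apart in mature neutrophils at 24 hours, where 178 of 571 genes (31.2%) were (median log2 ratio 0.57, against 0.40 over all genes). In endothelial cells 19 of 24 were higher in IR at 24 hours (median 2.05), where 671 of 11383 genes (5.89%) were higher, and in monocytes 5 of 11 (median 0.83), where 410 of 3682 (11.1%) were. The 3 were Btg2, Plk3 and Pmaip1, and Cdkn1a, Mdm2, Ccng1 and Phlda3 were not measured. Whether neutrophils and endothelial cells differ in this was not tested. At 56 days 2 of 9 members, Cdkn1a and Rps27l, were higher in IR mature neutrophils and 1 lower, near the 22.1% and 15.7% of all measured genes, and Cdkn1a had no UMI in IR cells without the mixed barcodes.

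**Figure D5:**
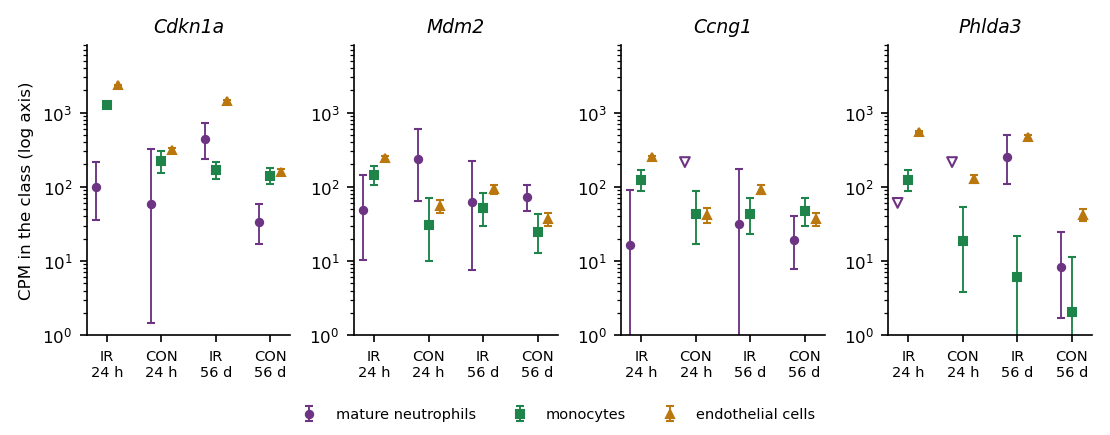
Cdkn1a, Mdm2, Ccng1 and Phlda3 in mature neutrophils, monocytes and endothelial cells of the 4 libraries, in CPM (log axis) with exact Poisson 95% intervals, IR left of CON at each time; open triangles are upper bounds where no UMI was found. Cdkn1a in IR endothelial cells at 24 hours stands at 2317 CPM, against 98.5 CPM in IR mature neutrophils.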

How the data were processed

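Live, nucleated cells pooled from 3 hindlimbs per group were profiled with 10x Genomics 3' chemistry, 1 library per group. The authors aligned reads to mm10 and counted UMIs using Cell Ranger (version 5.0.0), as the submitters' processing notes list them. The deposited matrices hold whole UMI counts of 32285 genes in 7086 barcodes, none under 500 UMIs. Kept barcodes had medians of 3057 to 3627 UMIs per library. Gene coordinates were not needed beyond the printed windows, which come from RefSeq (GRCm38.p6).

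UMI counts were summed per stage and library as deposited and scaled to CPM of the class total. No doublet caller was run: barcodes with at least 20 UMIs of another lineage were left out in an alternative. Endothelial cells and monocytes were kept barcodes with at least 3 UMIs over at least 2 markers of their kind. Free RNA was not removed. Exact Poisson, binomial (Clopper-Pearson) and conditional binomial intervals at 95% cover counting error only. A prior count of 0.5 was added before log2 ratios were taken. A gene was measured from 20 summed UMIs on, and a class with 0 UMIs was given a floor of 3.

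The named genes were the 8 furthest higher and lower by the interval bound nearest to 1 (10 each, by log2 ratio, between the stages), without mitochondrial, ribosomal, haemoglobin, sex-linked, immunoglobulin and predicted genes and markers of other cells; members of the 15 gene lists were added, of which Tnf, Hp, Cyba, Cdk1, Nlrp3, Nfkbia and Bax were picked after their values were seen. A gene that the ranking between the stages named is not reported here. The members, lists and thresholds were chosen with earlier results of these data known. The limit of 8 cells per stage, the mixed barcodes and the limits of 5% S100 share and 0 granule UMIs were chosen after seeing the data. The ratio steps were tested on simulated counts. Analyses used Python 3.11.15, numpy 2.4.6, pandas 2.3.3 and scipy 1.17.1, and matplotlib 3.10.9 for figures.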

Additional observations from a re-analysis of the deposited data

Results flagged for a closer look

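The immature share of neutrophils had ratios of IR over CON on different sides of 1: 0.0412 (0.000993 to 0.257) at 24 hours, from 1 of 34 IR and 20 of 28 CON cells, and 1.15 (0.651 to 1.91) at 56 days, from 17 of 26 IR and 133 of 234 CON cells. The 56-day interval includes 1, and as a share of all kept barcodes immature cells were lower in IR at both times (0.0263 and 0.224). The difference between the times was not tested, since each group is 1 library. Granulocyte-monocyte progenitors, nucleated erythroid cells and B cell precursors were also fewer in the IR library at 24 hours.

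Ifi27l2a, an interferon-induced gene, had a log2 ratio of 3.13 in mature neutrophils at 24 hours and of -1.18 at 56 days, from 46 and 1 UMIs in IR and CON cells at 24 hours and 4 and 114 at 56 days. The difference between the times was not tested. At 24 hours the transcripts came from 7 IR cells, 37.0% of them from 1 cell.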

How the results depend on the processing

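No paired analysis was possible because each group is 1 library of pooled limbs and no replicate numbers link groups. Of 138 alternatives for shares, counts and list medians, 103 moved them by less than the limit used (1.5-fold for counts, the counting interval otherwise), and 35 by more. The 24-hour neutrophil share ratio changed sides of 1, with 0.639 (0.376 to 1.09) of all kept barcodes and 1.10 (0.647 to 1.88) of those that were not endothelial. In mature cells at 24 hours, the higher and lower counts were 47 and 10 at 50 summed UMIs, 363 and 99 at 10, 92 and 66 with median scaling, and 82 and 19 with at least 5% S100; 56 were lower without the rule genes in the totals. In mature cells at 56 days they were 154 and 156 at 50 UMIs and 1071 and 730 at 10; 345 were higher without the rule genes, and 78 lower with a prior count of 2. In immature cells at 56 days they were 134 and 213 at 50 UMIs, 976 and 713 at 10, and 239 and 792 without mixed barcodes; 254 were higher without cells with endothelial UMIs, and 187 lower with a prior count of 2. Immature over mature gave 353 and 535 at 50 UMIs, 67 and 164 with cells thinned to 500 UMIs, 54 and 98 over 3 libraries, and 558 lower without the rule genes. Fewer or more genes tested set the counts at other UMI limits; the cause was not tested for the rest. The p53 list median in mature cells at 24 hours, from 3 genes, was 0.17 with median scaling, 0.15 with cells weighted equally, 0.17 with a prior count of 2 and 0.26 without the rule genes. Of 384 alternatives for named genes, 323 stayed, 58 moved and 3 reversed: Igfbp7 at -1.69 and Cd81 at -0.15 in mature cells at 56 days without cells with endothelial UMIs, and Scarb1 at -0.43 in immature cells at 56 days without mixed barcodes, against 1.29 without cells with endothelial UMIs. Cd81 and Scarb1 then had under 20 UMIs, so no direction can be read. Depth limits the rest: mature cells numbered 33, 8 and 9 in 3 of the libraries, so a gene with few UMIs could not be measured there.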

Other observations

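Metabolic and oxidase genes of the neutrophils were not described above. The NADPH oxidase subunits, which make the respiratory burst, were within 2-fold between the stages in the CON library at 56 days except for Cybb: of 7 subunits 1 was higher in immature cells and none lower (median log2 ratio 0.18). Ncf1 had a ratio of 1.12 (0.963 to 1.30) and Rac2 of 1.13 (0.989 to 1.30). None of 5 measured subunits was 2-fold apart between IR and CON mature cells at 24 hours, against 31.2% of all measured genes. At 56 days 1 of 7 was lower, near the 15.7% of all measured genes: Cybb, with 2 and 134 UMIs in IR and CON cells.

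Among apoptosis and survival genes, 1 of 2 measured was higher in IR mature cells at 24 hours and none lower, against 26.1% and 5.08% of all measured genes. At 56 days 1 of 7 was higher and 1 lower (median -0.24, against 0.20 over all genes), where 22.1% and 15.7% of all measured genes were. Pim1, a survival kinase, stood at 2659.9 CPM in IR and 1107 CPM in CON mature cells at 24 hours and at 2062 and 1046 CPM at 56 days. Mcl1, which keeps neutrophils alive, stood at 3563 and 1806 CPM at 24 hours and at 1655 and 1973 CPM at 56 days, ratios of 1.97 (1.35 to 2.97) and 0.839 (0.622 to 1.11). Of the hypoxia and glycolysis genes, 0 of 4 measured were 2-fold apart in mature cells at 24 hours, against 31.2% of all measured genes. At 56 days 2 of 11 were higher and 2 lower, near the 22.1% and 15.7% of all measured genes.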
